A study of Mus musculus with 2 samples.

Results

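The 10 imprinted growth genes *H19*, *Meg3*, *Dlk1*, *Cdkn1c*, *Grb10*, *Ndn*, *Plagl1*, *Peg3*, *Mest* and *Sgce* were compared between cells of the superficial zone (SFZ) of articular cartilage and costal chondrocytes (CC). They were taken from a list of symbols, and every probe set annotated to 1 of them alone was used. A probe set is a group of short oligonucleotides on the array that together measure the 3′ part of a transcript. Of the 10 genes, 9 had such probe sets, 36 in all among the 34945 probe sets with a single symbol, so that 9 of the 18193 genes named on the array are described here. *H19* had no probe set to itself.

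SFZ cells came from the joint surfaces of femur and tibia, and CC came from rib cartilage. Both were isolated from ICR mice, an outbred strain, at postnatal day 4 and grown in DMEM with 10% FBS, so neither RNA represents cells taken straight from the tissue. The labels name no genetic change or treatment, and whether animals were pooled is not stated. Biotinylated cRNA made from 100 ng of total RNA was hybridised to 1 Affymetrix mouse genome array per cell type, and the values are MAS5 signals, a linear intensity for each probe set. With 1 array each, no difference below could be checked against replicates, and none was tested. The study set the cell types against each other to find transcription factors of the joint surface.

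Genomic imprinting silences a gene on the chromosome inherited from 1 parent, through DNA methylation laid down in the egg or the sperm. Many imprinted genes control growth before and shortly after birth. As a rule, those expressed from the paternal copy favour growth and those expressed from the maternal copy restrain it, although single genes depart from this. In mice a set of them is expressed together in fetal and neonatal tissues, cartilage and muscle included, and is switched down in most organs as growth slows. In most tissues *H19*, *Meg3*, *Cdkn1c* and *Grb10* are read from the maternal chromosome, and *Dlk1*, *Peg3*, *Plagl1*, *Mest*, *Ndn* and *Sgce* from the paternal one. The arrays measured RNA from both parental copies together and say nothing of which copy it came from.

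The promoter regions of *Peg3*, *Plagl1* and *Mest* carry methylation on the maternal copy, placed at CpG dinucleotides in the egg. Their sequences are shown because CpG is the base step that carries the imprint. Each is the 250 bases before a transcript's start from RefSeq (GRCm38.p6), 5′ to 3′ on the gene's strand, with each CpG in capitals. For *Mest* the second of 3 starts is shown.
Peg3 promoter, chr7:6730420-6730669, minus strand: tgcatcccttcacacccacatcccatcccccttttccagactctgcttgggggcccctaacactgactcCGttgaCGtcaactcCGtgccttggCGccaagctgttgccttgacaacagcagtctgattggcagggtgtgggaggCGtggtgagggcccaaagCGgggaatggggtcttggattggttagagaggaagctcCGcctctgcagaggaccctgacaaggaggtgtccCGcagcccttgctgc
Plagl1 promoter, chr10:13090582-13090831, plus strand: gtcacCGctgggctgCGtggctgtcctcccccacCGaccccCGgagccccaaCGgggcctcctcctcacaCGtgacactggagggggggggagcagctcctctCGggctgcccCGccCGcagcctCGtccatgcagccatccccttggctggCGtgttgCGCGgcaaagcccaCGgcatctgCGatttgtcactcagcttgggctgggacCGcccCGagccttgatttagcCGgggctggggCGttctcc
Mest promoter, chr6:30737800-30738049, plus strand: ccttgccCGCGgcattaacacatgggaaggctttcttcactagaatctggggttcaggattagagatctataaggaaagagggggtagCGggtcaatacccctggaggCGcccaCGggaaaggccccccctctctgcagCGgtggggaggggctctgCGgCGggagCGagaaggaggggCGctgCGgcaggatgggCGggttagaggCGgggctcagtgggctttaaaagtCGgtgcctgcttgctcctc
The *Plagl1* sequence holds 19 CpG, that of *Mest* 14 and that of *Peg3* 8, against a median of 6 in all 32851 such windows. RefSeq windows were at hand for 7 of the genes, 11 windows in all, and they held between 0 CpG, at the second start of *Meg3*, and 40 CpG, at the second start of *Grb10*. At least 10 CpG were found in 5 of the 11, against 37.8% of all windows, and 2 of the 5 are *Mest* windows that start 3 bases apart and hold nearly the same sequence. The word GGGGCCCC, which reads the same on both strands and forms the core of the site known for the zinc fingers of Plagl1, was found in 1 of the 11, that of *Peg3*, 201 bases before the start, and in 0.889% of all windows. CACGTG, the E-box word bound by Myc and related factors and also the same on both strands, was found in 1 of the 11, that of *Plagl1*, 182 bases before the start, and in 6.02% of all windows. The 2 words were thus found in the promoters of different genes, and a match describes the letters only.

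By the brightest probe set of each, none of the 9 measured genes differed by as much as 1.5-fold between the arrays. A dimmer probe set of *Peg3* was 1.66-fold higher in CC. *Dlk1*, *Cdkn1c*, *Meg3* and *Plagl1* had SFZ/CC ratios from 0.970 to 1.09. *Peg3*, *Grb10*, *Mest*, *Ndn* and *Sgce* had ratios from 0.689 to 0.756, with the SFZ signal below the CC signal in each. Each gene was represented by its brightest probe set, taken by the mean of its log2 signals. The study's thresholds, a signal in SFZ cells over 100 and an SFZ/CC ratio over 2, defined a gene as higher in SFZ cells, and the same thresholds were turned round for CC. By these thresholds 0 of 9 genes passed in SFZ cells and 0 of 9 in CC. Of 12481 genes above background, 1.71% passed in SFZ cells and 7.89% in CC. Among the 1722 genes with a mean signal over 1000, where 8 of the 9 genes lay, 2.26% passed in SFZ cells and 3.02% in CC. For 9 genes these shares come to less than 1 gene in each direction, so the counts of 0 do not set the genes apart. Of the 36 probe sets, 0 passed in either direction, against 0.779% of the 45037 probe sets of the array higher in SFZ cells and 3.58% higher in CC.

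**Figure D1:**
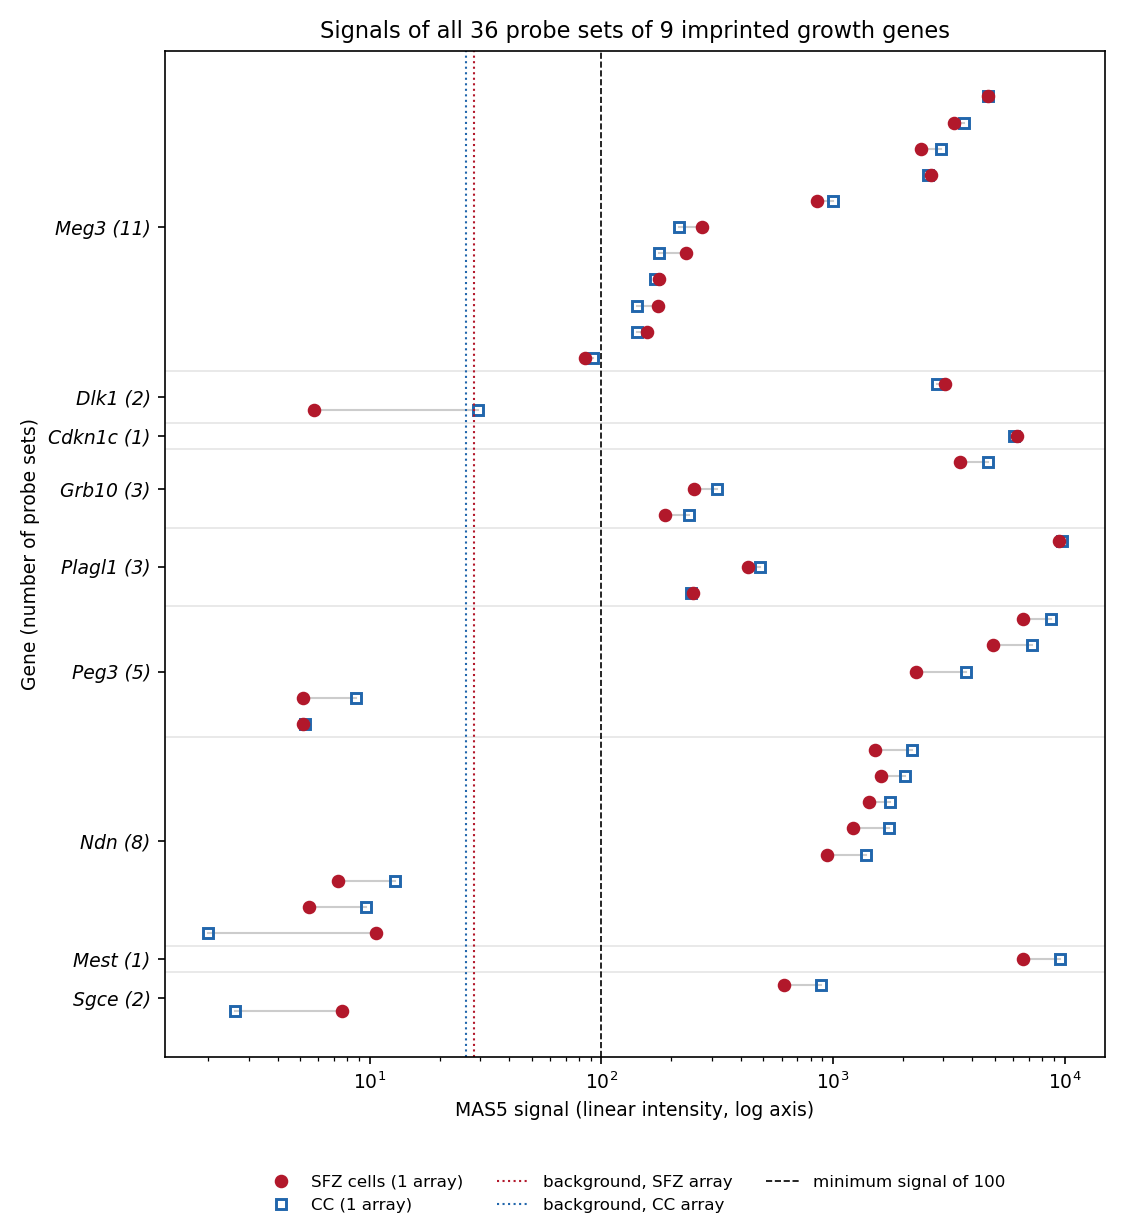
MAS5 signals (log axis) of the 36 probe sets of the 9 measured genes, with the SFZ array as filled circles and the CC array as open squares, 1 array each. Dotted lines mark the background level of each array and the dashed line a signal of 100. In 29 probe sets both signals are above background and lie close to each other, and 6 probe sets are under background on both arrays.

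Background was the 95th percentile of the signals of 87 probe sets for odorant, taste, trace amine and vomeronasal receptor genes, and stood at 28.2 for SFZ cells against 26.0 for CC. Of the 36 probe sets, 29 were above it on both arrays, 1 was above it on the CC array alone, and 6 were at or under it on both. The 29, called usable here, had SFZ/CC ratios from 0.604 to 1.31, with 10 over 1 and 19 under 1. Over the 12481 genes the median log2 ratio, SFZ over CC, was -0.18, and it was 0.01 after the arrays were scaled to equal medians and 0.05 after quantile normalization. Thus a log2 ratio of 0 in the deposited signals lies above the middle of the arrays. *Meg3*, at 0.00, had 66.9% of the genes below it. Relative to the median of -0.18, 4 of the 9 genes were above and 5 below.

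*H19* and *Meg3* make long noncoding RNAs. *H19* is the host of a microRNA, miR-675, and the only probe set on its transcript was annotated to *Mir675* and *H19* together. Both mature arms lie inside *H19* in RefSeq (GRCm38.p6), and they are given to show what shares the annotation, with the seed, bases 2 to 8, in capitals.
mmu-miR-675-5p, chr7:142577112-142577133, minus strand: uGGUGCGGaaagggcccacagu
mmu-miR-675-3p, chr7:142577078-142577099, minus strand: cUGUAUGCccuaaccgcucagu
That shared probe set had a signal of 9729 in SFZ cells against 10875 in CC, a ratio of 0.895. It cannot be given to *H19* alone, and it does not measure the mature microRNAs. With it added as a further value the median log2 ratio of the genes was -0.28. *Igf2*, the paternally expressed growth factor gene that shares enhancers with *H19*, was at 9270 in SFZ cells against 9914 in CC, a ratio of 0.935.

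*Meg3* is the maternally expressed RNA of the *Dlk1*-*Meg3* domain on mouse chromosome 12. Its brightest probe set had 4691 in SFZ cells against 4679 in CC, a log2 ratio of 0.00. All 11 probe sets of *Meg3* were usable, and their ratios ran from 0.818 to 1.31, with an SD of 0.23 on the log2 scale. The 5 probe sets with signals over 500 had ratios from 0.818 to 1.03, and 2 of them were over 1. The 6 probe sets with signals under 500 had ratios from 0.922 to 1.31, and 5 of them were over 1. The probe sets of *Meg3* thus lay on both sides of equality, and this split by signal was made after the values were seen.

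*Dlk1* encodes a membrane protein with EGF repeats, related to the ligands of Notch and known from fat precursors, whose conversion into fat cells it restrains. *Dlk1* was at 3053 in SFZ cells against 2807 in CC, a ratio of 1.09. Its other probe set was near background, at 5.74 in SFZ cells against 29.2 in CC, and so gives no ratio of use. The value of *Dlk1* therefore rests on 1 probe set of a kind that can bind several transcripts. Across the same domain *Rian*, a noncoding RNA transcribed in the direction of *Meg3*, was at 3315 in SFZ cells against 3815 in CC, a ratio of 0.869, and *Mirg*, the host of a microRNA cluster, at 253 in SFZ cells against 429 in CC, a ratio of 0.590. A second probe set of *Mirg* had the opposite direction, at 143 in SFZ cells against 105 in CC, a ratio of 1.36. All 4 measured genes of the domain were above background on both arrays and none passed the thresholds.

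*Cdkn1c*, *Grb10* and *Ndn* restrain growth. *Cdkn1c* encodes p57, an inhibitor of cyclin-dependent kinases that in mice is needed for chondrocytes of the growth plate to leave the cell cycle and mature. *Cdkn1c* was at 6253 in SFZ cells against 6048 in CC, a ratio of 1.03, on its only probe set. Of all genes above background, 1.71% passed in SFZ cells and 7.89% in CC. The other inhibitors of cyclin-dependent kinases gave 0 of 6 genes past the thresholds and a median log2 ratio of -0.55. Among them *Cdkn1a*, encoding p21, was at 1260 in SFZ cells against 2384 in CC, *Cdkn1b*, encoding p27, at 682 in SFZ cells against 687 in CC, and *Cdkn2c* at 304 in SFZ cells against 563 in CC. Of 9 cell cycle genes above background 0 passed in SFZ cells and 7 in CC, against the same shares. In this list *Pcna* was at 1572 in SFZ cells against 2664 in CC and *Rrm2* at 362 in SFZ cells against 1175 in CC. The SFZ signal was the higher one for *Mcm2*, a gene picked for that direction, with 417 in SFZ cells against 399 in CC. Its other probe set had 417 in SFZ cells against 321 in CC. Thus *Cdkn1c* was nearly equal between arrays on which 7 of these 9 cell cycle genes were higher in CC. A link between *Cdkn1c* and cell division was not tested.

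*Grb10* encodes an adaptor that binds the insulin and IGF1 receptors and dampens their signal. *Grb10* was at 3522 in SFZ cells against 4672 in CC, a ratio of 0.754. Its other probe sets were dimmer, at 250 and 189 in SFZ cells against 317 and 238 in CC, with ratios of 0.790 and 0.795. All 3 probe sets had the SFZ signal below the CC signal, and their SD of 0.04 on the log2 scale was the smallest among the 5 genes with at least 3 usable probe sets. *Grb14*, a related adaptor that is not among the imprinted genes, was at 558 in SFZ cells against 294 in CC, just short of the thresholds.

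*Ndn* encodes necdin, a MAGE family protein that holds back the cell cycle in neurons and other cells of mice. The 5 usable probe sets of *Ndn* were between 945 and 1614 in SFZ cells and between 1392 and 2185 in CC. The SFZ signal was the lower one in each of the 5, with ratios from 0.679 to 0.809 and an SD of 0.12, and the brightest gave 0.695. The other 3 were under background on both arrays. Of the usable probe sets of *Ndn*, those not of a kind that can bind several transcripts had ratios of 0.695 and 0.809. *Magel2*, the next annotated gene and a relative of *Ndn*, was at 103 in SFZ cells against 124 in CC, a ratio of 0.835.

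*Plagl1* and *Peg3* encode zinc finger proteins. *Plagl1*, also called Zac1, arrests the cell cycle when overexpressed and in mice regulates other imprinted genes. It was at 9461 in SFZ cells against 9757 in CC, a ratio of 0.970, on a probe set of a kind that can bind several transcripts. Its other probe sets gave 430 in SFZ cells against 485 in CC, and 248 in SFZ cells against 243 in CC, so that the ratios ran from 0.887 to 1.02. Its side of equality was not fixed: the log2 ratio was -0.04 in the deposited signals, 0.14 after scaling to equal medians, and -0.17 without the probe sets that can bind several transcripts. Its relative *Plagl2*, not imprinted, was at 82.6 in SFZ cells against 113 in CC.

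*Peg3* encodes a large zinc finger protein active in stem cells and the placenta of mice. Its 3 usable probe sets were at 6609, 4898 and 2276 in SFZ cells against 8745, 7271 and 3771 in CC. The ratios were 0.756, 0.674 and 0.604, the last being the lowest among the 29 usable probe sets. All 3 had the SFZ signal below the CC signal, with an SD of 0.16. In the *Peg3* domain *Zim1*, a neighbouring zinc finger gene expressed from the maternal copy, was at 90.2 in SFZ cells against 174 in CC, a ratio of 0.517, and *Usp29*, a deubiquitinase gene that starts close to the promoter of *Peg3*, was at 45.6 in SFZ cells against 55.6 in CC.

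*Mest* and *Sgce* make membrane proteins. *Mest*, known for its rise in expanding fat of mice, encodes a protein of the alpha/beta-hydrolase family. It was at 6640 in SFZ cells against 9534 in CC, a ratio of 0.696, on a single probe set. *Sgce* encodes ε-sarcoglycan, a member of the sarcoglycan family that is present in many tissues beside muscle. It was at 614 in SFZ cells against 892 in CC, a ratio of 0.689, and its other probe set was under background on both arrays. The remaining sarcoglycans and dystroglycan gave 0 of 4 genes past the thresholds, against 1.71% of all genes in SFZ cells and 7.89% in CC. Of the 4, *Dag1*, encoding dystroglycan, was at 1456 in SFZ cells against 1675 in CC. *Sgcb*, whose probe sets disagreed in direction, was at 816 in SFZ cells against 683 in CC, and *Sgca*, the muscle form, at 37.4 in SFZ cells against 95.4 in CC. *Peg10*, a gene of retrotransposon origin that shares a promoter region with *Sgce*, was under background in SFZ cells at 12.7 and at 35.5 in CC, at least 1.26-fold higher in CC.

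**Figure D2:**
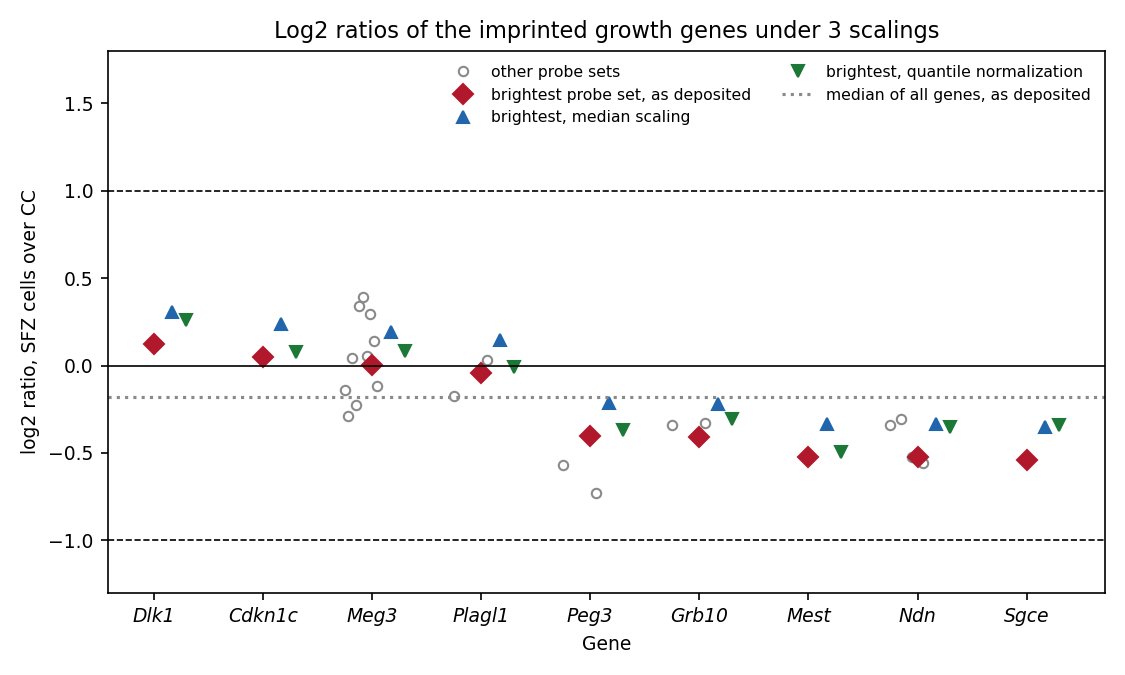
Log2 ratio of SFZ cells over CC for each gene, with its brightest probe set in the deposited signals (diamonds), after median scaling (upward triangles) and after quantile normalization (downward triangles), and its other usable probe sets (open circles). Dashed lines mark a ratio of 2 and the dotted line the median of all genes at -0.18. *Peg3*, *Grb10*, *Mest*, *Ndn* and *Sgce* lie under 0 in all 3 settings, and *Plagl1* is over 0 in 1 of them.

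On the log2 scale the 9 genes ran from -0.54 for *Sgce* to 0.12 for *Dlk1*, with a median of -0.40, against -0.18 over all genes above background and -0.12 over those with a mean signal over 1000. The 5 genes with ratios under 0.8 had log2 ratios from -0.54 to -0.40 as deposited. They had -0.35 to -0.22 after median scaling and -0.49 to -0.31 after quantile normalization, and in these settings their sign did not change. Their places among all genes were low but not extreme, since from 22.7% of genes for *Sgce* to 30.7% for *Peg3* had a lower ratio. For *Plagl1*, *Meg3*, *Cdkn1c* and *Dlk1* that share ran from 62.6% to 75.7%. By parental origin the 3 measured genes expressed from the maternal copy had a median log2 ratio of 0.00, and the 6 expressed from the paternal copy -0.46. Each origin held genes near equality and genes with ratios under 0.8, *Grb10* among the maternal ones and *Dlk1* and *Plagl1* among the paternal ones.

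The spread among probe sets of the same gene was the only measure of error available. Pooled over *Meg3*, *Grb10*, *Plagl1*, *Peg3* and *Ndn* it was an SD of 0.18 on the log2 scale, and the median over 2048 genes with at least 3 usable probe sets was 0.21. Probe sets of a gene share the same RNA and array, so this spread leaves out the variation between cultures. By their brightest probe sets all 9 genes were within 1.5-fold in either direction. The same held for 73.1% of genes above background and 84.0% of the genes with a mean signal over 1000.

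**Figure D3:**
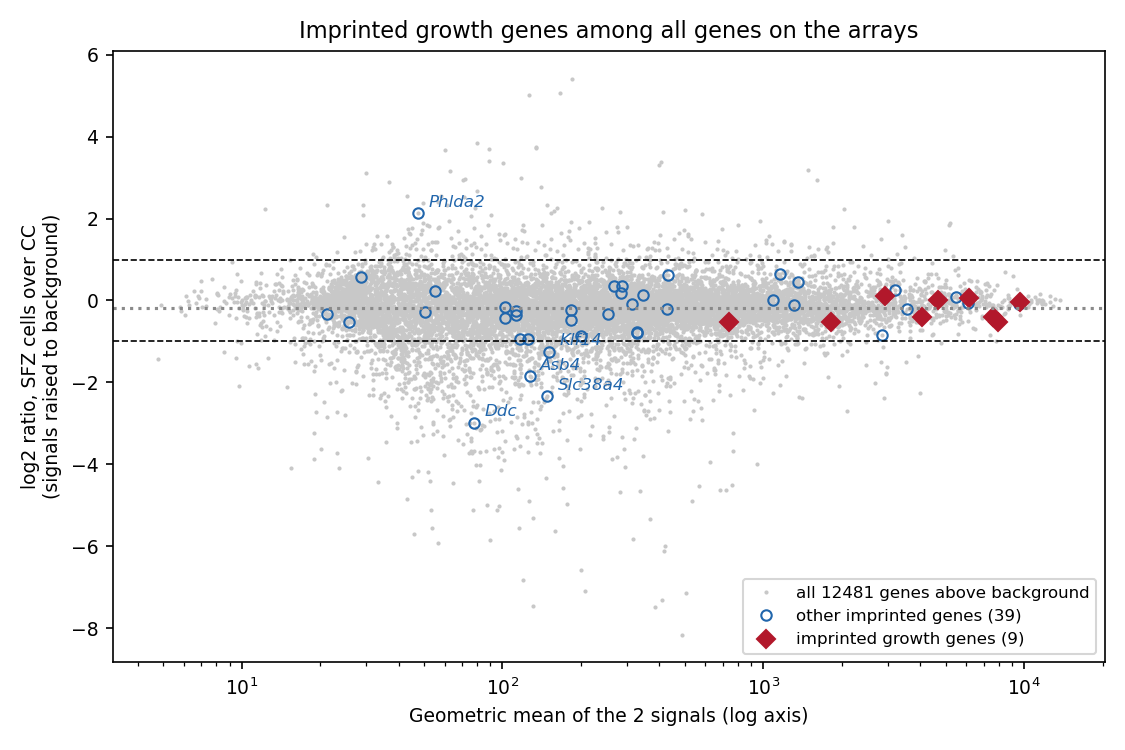
Log2 ratio of SFZ cells over CC against the geometric mean of the 2 signals (log axis) for 12481 genes above background (grey), 39 other imprinted genes (open circles) and the 9 measured imprinted growth genes (diamonds), 1 array per cell type. Dashed lines mark a ratio of 2 and the dotted line the median of all genes at -0.18. The diamonds lie between -0.54 and 0.12, and of the open circles 1 lies above and 4 lie below the dashed lines.

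Beyond these genes, 60 further imprinted genes were listed, of which 50 were on the array under a single symbol and 39 were above background. Their median log2 ratio was -0.20, near that of all genes. Of the 39, 1 was higher in SFZ cells, against 1.71% of all genes, and 4 were higher in CC, against 7.89%, which is near the background. *Phlda2*, a gene that limits growth of the placenta in mice, was at 114 in SFZ cells against 19.8 in CC, at least 4.40-fold higher in SFZ cells. Its SFZ signal was close to the minimum of 100, and it no longer passed with a minimum of 200. In CC the higher genes were *Ddc*, encoding the decarboxylase that makes dopamine and serotonin, at 27.3 in SFZ cells against 223 in CC, *Slc38a4*, an amino acid transporter gene, at 66.0 in SFZ cells against 334 in CC, *Asb4*, a gene of the ankyrin repeat and SOCS box family, at 67.2 in SFZ cells against 242 in CC, and *Klf14*, a Krüppel-like factor gene, at 97.8 in SFZ cells against 233 in CC. *Klf14* did not pass after quantile normalization, with 64 added to both signals or with a ratio over 3. Here and wherever a list is described, fewer cells of a type and less RNA per cell cannot be told apart in bulk RNA.

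Genes of the insulin-like growth factor axis act with several of these genes. *Igf2r*, the maternally expressed receptor that clears Igf2, was at 3472 in SFZ cells against 2920 in CC, a ratio of 1.19. *Gnas*, the imprinted gene of the stimulatory G protein subunit, was at 6002 in SFZ cells against 6237 in CC. Of 7 genes of the axis that are not counted among the imprinted ones, 0 passed in SFZ cells and 2 in CC. Of all genes above background 1.71% passed in SFZ cells and 7.89% in CC. *Igf1*, the growth factor of postnatal life, was at 18.9 in SFZ cells against 840 in CC, at least 29.8-fold higher in CC. The insulin receptor gene *Insr* was at 370 in SFZ cells against 335 in CC, the receptor substrate gene *Irs1* at 1475 in SFZ cells against 2768 in CC, and *Igf1r* at 346 in SFZ cells against 331 in CC. *Igf2bp1*, which binds *Igf2* mRNA, was at 29.3 in SFZ cells against 196 in CC. *Igf2bp3* was not past the thresholds on its brightest probe set, at 135 in SFZ cells against 235 in CC. Some of its dimmer probe sets passed in CC, the brightest of these at 95.9 in SFZ cells against 292 in CC.

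Of 5 genes related to *Dlk1* or Notch, 0 passed in SFZ cells and 2 in CC, against 1.71% and 7.89% of all genes. The 2 were *Dlk2*, at 68.3 in SFZ cells against 145 in CC, and *Notch3*, at 44.0 in SFZ cells against 121 in CC. *Notch2* was at 642 in SFZ cells against 660 in CC. Of 5 genes that maintain imprints, 0 passed in SFZ cells and 1 in CC, against the same shares. The maintenance methyltransferase gene *Dnmt1*, whose transcript is most abundant in dividing cells, was at 268 in SFZ cells against 629 in CC, a ratio of 0.426. The corepressor gene *Trim28* was at 1038 in SFZ cells against 1739 in CC, *Ctcf*, encoding the insulator protein bound between *Igf2* and *H19*, at 472 in SFZ cells against 706 in CC, and *Smchd1* at 602 in SFZ cells against 706 in CC. *Igf1r*, *Igf2bp1*, *Igf2bp3*, *Notch3*, *Dnmt1* and *Mirg* were named after their values were seen. Over all 29 partner genes above background the median log2 ratio was -0.58, with 0 past the thresholds in SFZ cells, against 1.71% of all genes, and 5 in CC, against 7.89%.

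**Figure D4:**
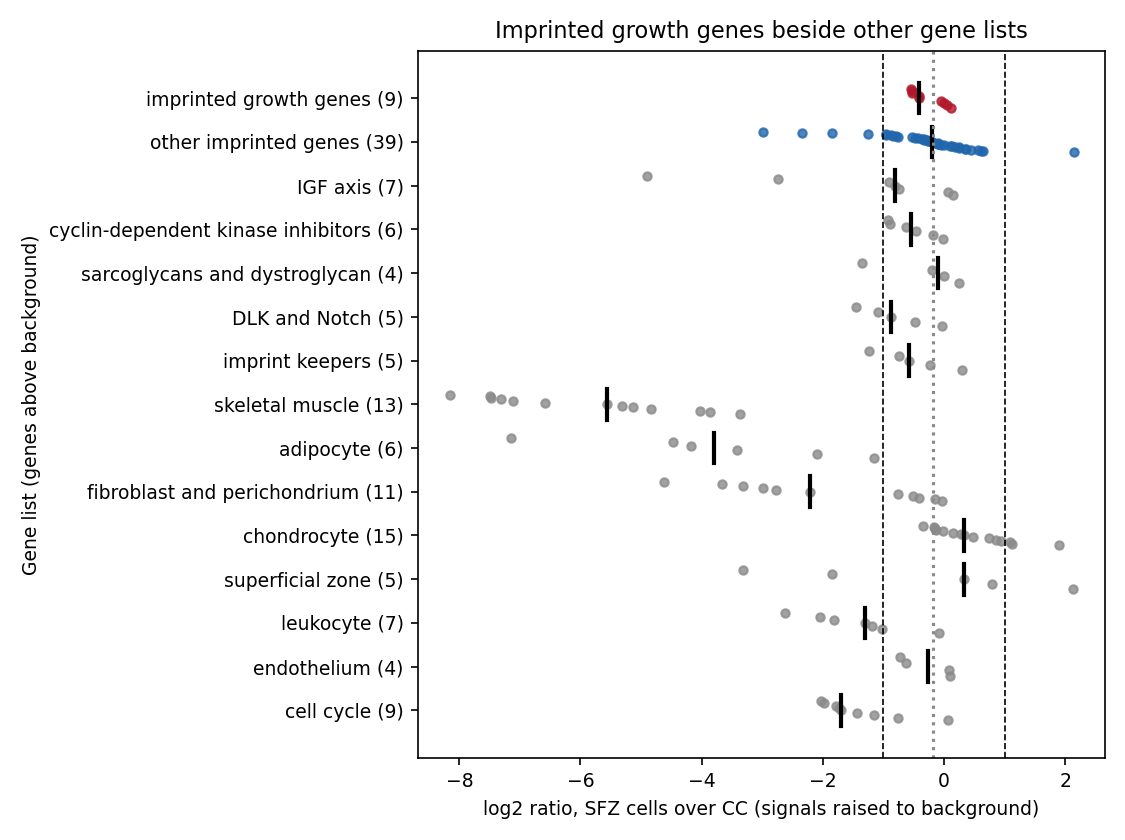
Log2 ratio of SFZ cells over CC (signals raised to background) for each gene above background, by list, with 1 array per cell type. Black bars are medians, dashed lines mark a ratio of 2 and the dotted line is the median of all genes at -0.18. The imprinted growth genes span -0.54 to 0.12, while the skeletal muscle list has its median at -5.56.

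Imprinted genes lie in clusters, so the 2 nearest genes with a named probe set were read on each side of every gene. They came to 36 genes beside the 10, and 26 were above background, 12 of them imprinted, with a median log2 ratio of -0.23. Of the 26, 2 passed in SFZ cells, against 1.71% of all genes, and 2 in CC, against 7.89%, and counts this small do not set the neighbours apart. Next to *Grb10* the actin-nucleating protein gene *Cobl* was at 317 in SFZ cells against 144 in CC, a ratio of 2.20, and *Ddc* on the other side was at least 7.91-fold higher in CC. Near *Cdkn1c* the SFZ-higher neighbour was *Phlda2*, while *Kcnq1ot1*, the noncoding RNA that silences the domain on the paternal copy, was at 97.1 in SFZ cells against 108 in CC. Other usable probe sets of *Kcnq1ot1* had the opposite direction, at 81.6 and 55.6 in SFZ cells against 44.2 and 50.3 in CC. Near *H19* the muscle gene *Tnnt3* was at 18.0 in SFZ cells against 1407 in CC, at least 49.9-fold higher in CC, and the gene between them on the array, *Mrpl23* of the mitochondrial ribosome, was at 969 in SFZ cells against 1046 in CC. Beside *Sgce* the collagen gene *Col1a2* was at 8677 in SFZ cells against 8919 in CC, and *Casd1* at 912 in SFZ cells against 793 in CC. Beside *Mest*, *Copg2* was at 400 in SFZ cells against 459 in CC.

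**Figure D5:**
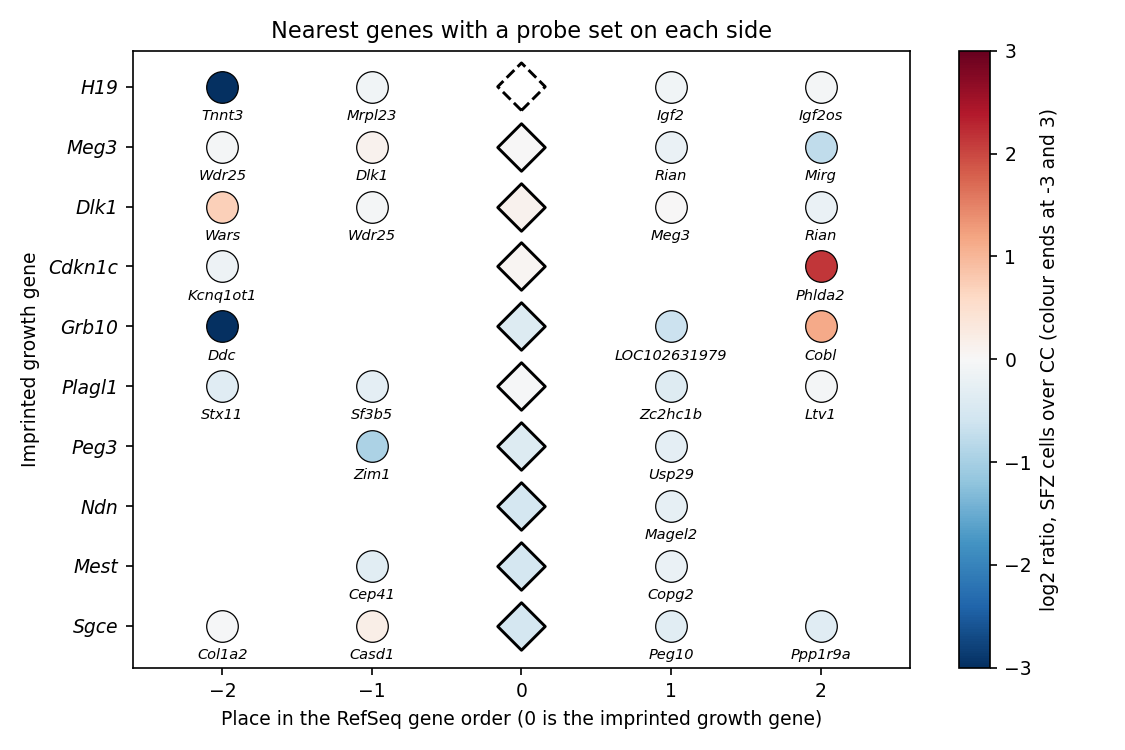
Log2 ratio of SFZ cells over CC, as colour, for each imprinted growth gene (diamonds) and for the 2 nearest genes with a named probe set on each side in the RefSeq order (circles), 1 array per cell type. Genes with neither signal above background are left out, and *H19*, with no probe set of its own, is an open diamond. *Phlda2* and *Cobl* are coloured toward SFZ cells and *Tnnt3* and *Ddc* toward CC, while the diamonds are pale.

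The labels were checked against markers. The counts for each marker list stand against 1.71% of all genes above background higher in SFZ cells and 7.89% higher in CC. *Prg4*, the lubricin gene of the joint surface, was at 323 in SFZ cells against 73.6 in CC, and *Gdf5*, a growth factor gene of forming joints, at 93.1 in SFZ cells against 74.2 in CC. Of 6 superficial zone genes 5 were above background, 1 past the thresholds in SFZ cells, *Prg4*, and 2 in CC, and the 6 summed to 686 in SFZ cells against 976 in CC. The 2 were the adhesion molecule gene *Vcam1*, at 35.7 in SFZ cells against 354 in CC, and *Thbs4*, encoding thrombospondin-4, at 108 in SFZ cells against 388 in CC. All 15 chondrocyte genes were above background on both arrays, 3 higher in SFZ cells and 0 in CC, and their summed signal was 93419 in SFZ cells against 68785 in CC. Markers of several other cell types had signals on the CC array, and all 11 fibroblast genes were above background on both arrays. Of 15 skeletal muscle genes 13 were above background and all 13 were higher in CC, with summed signals over the 15 of 256 in SFZ cells against 36142 in CC. In SFZ cells 11 of the 15 were at or under background, and *Myf5* and *Pax7*, which mark muscle precursors, were so on both arrays, the last 2 genes being named after their values were seen. Of 6 adipocyte genes above background 5 were higher in CC, with sums over the 7 on the array of 1029 in SFZ cells against 11552 in CC. Fibroblast genes summed to 29659 in SFZ cells against 43121 in CC with 6 of 11 higher in CC, leukocyte genes to 476 in SFZ cells against 2115 in CC with 4 of 7, and cell cycle genes to 3646 in SFZ cells against 8187 in CC with 7 of 9. Endothelial genes gave 0 of 4 past the thresholds, with sums of 62.5 in SFZ cells against 156 in CC.

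Several of the 10 genes are known to be expressed in muscle, fat or their precursors as well as in cartilage. The part of these cells in the CC signals of the imprinted genes was not tested. The median log2 ratio was -3.80 for the adipocyte list and -5.56 for the skeletal muscle list. By the brightest probe set *Dlk1* had a ratio of 1.09, on its single usable probe set, *Peg3* 0.756, *Mest* 0.696, *Ndn* 0.695 and *Sgce* 0.689. The probe set shared by *Mir675* and *H19* had 0.895. *Grb10* had a ratio of 0.754 and *Cdkn1c* 1.03. *Plagl1* was at 9461 in SFZ cells against 9757 in CC, and *Meg3* at 4691 in SFZ cells against 4679 in CC. Which of these genes the muscle or fat cells express was not tested.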

How the data were processed

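Each cell type was hybridised to 1 Affymetrix Mouse Genome 430 2.0 array. The signals deposited by the authors are linear intensities per probe set, made with MAS5 according to the submitters' processing notes. No source used here gives the version of MAS5, its scaling target or its detection calls, and a scaling target can shift all ratios together. The SFZ array had signals between 0.0210 and 13754 with a median of 28.1, and the CC array between 0.0361 and 13608 with a median of 32.0. The number of arrays limits the precision.

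Signals were used as deposited. Leaving out 64 controls gave 45037 probe sets, of which 34945 had 1 symbol in the platform annotation, 932 several and 9160 none, and genes were named only from the first kind. Through Entrez identifiers 34741 of them matched RefSeq (GRCm38.p6), and 0 symbols differed. The array names no genome build, and coordinates belong to the RefSeq sequences only. Log2 ratios were taken after raising signals to the background level, and where 1 signal was under it the fold is a bound. A probe set was called usable where both signals were above background. Counting was tested on simulated arrays whose changes were planted well past the thresholds. This checks the counting and does not bear on differences as small as those of the imprinted growth genes.

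The members and lists were chosen with earlier results of these data known. The rule for named genes took all 10 genes, other imprinted genes past the thresholds, *Igf2*, *Igf2r*, *Peg10*, *Magel2*, *Rian* and *Gnas*, up to 3 of the brightest genes of each family or marker list, *Prg4*, *Gdf5*, and neighbours above background. Not all of those marker genes and neighbours are printed. The 12 alternatives were median scaling, quantile normalization, 64 added to both signals, other thresholds, other ways to combine the probe sets of a gene, and other choices of probe sets. The scripts ran under Python 3.11.15 with pandas 2.3.3, numpy 2.4.6, matplotlib 3.10.9 and scipy 1.17.1.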

Additional observations from a re-analysis of the deposited data

How the results depend on the processing

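The count of imprinted growth genes past the thresholds was 0 in both directions under all 12 alternatives. Their median log2 ratio of -0.40 became -0.22 under median scaling, and it was below 0 under each of the 6 alternatives that can change it. Over 0 were 3 of the 9 genes as deposited, 4 under median scaling and 3 under quantile normalization. *Plagl1* and *Dlk1* changed sign under at least 1 alternative, *Plagl1* as given above and *Dlk1*, at 0.12, to a bound of -0.05 where probe sets that can bind several transcripts were left out, which removes its only bright probe set. Of the 39 other imprinted genes above background, 1 was higher in SFZ cells and 4 in CC as deposited, against 1.71% and 7.89% of all genes. With a ratio over 1.5 the counts were 3 in SFZ cells and 10 in CC. Of all genes above background, 73.1% were within 1.5-fold in either direction, whatever their signal. With a minimum signal of 200, 0 were higher in SFZ cells. The shares given next are over all probe sets, also those under background, and so are not the shares for genes. The share of all probe sets higher in SFZ cells, 0.779% as deposited, was 1.28% under median scaling, 1.47% under quantile normalization, 0.473% with 64 added, 2.11% with a ratio over 1.5 and 0.280% with a ratio over 3. That of probe sets higher in CC, 3.58% as deposited, was 2.7% under median scaling and 2.43% under quantile normalization. It was 2.38% with 64 added, 7.24% with a ratio over 1.5 and 1.85% with a ratio over 3. Among all calls the share toward SFZ cells was 17.9% as deposited, 32.1% under median scaling and 37.6% under quantile normalization. No replicate could be left out. No paired analysis was possible because each cell type had 1 array.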
